A study of Mus musculus with 12 samples.

Results

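Transcripts of the Yap1 and Wwtr1 coactivators, of the 4 Tead transcription factors they work with, and of 4 of their best known target genes were measured by RNA sequencing in 12 primary mouse neuroendocrine thyroid carcinomas. The 10 genes were chosen by symbol (Yap1, Wwtr1, Tead1, Tead2, Tead3, Tead4, Ctgf, Cyr61, Ankrd1 and Amotl2, with Ctgf and Cyr61 as older symbols of Ccn2 and Ccn1) out of 23284 genes counted in each tumour, and all 10 passed the filter on low counts. The tumours came from a genetically engineered model. The genotype label read Rb1/Trp53/Crebbp for 5 tumours, called RPC here, and Rb1/Trp53 for 7 tumours, called RP, so that Rb1 and Trp53 are shared by both groups and Crebbp is named for the RPC tumours alone. Rb1 encodes the retinoblastoma tumour suppressor, Trp53 encodes p53, and Crebbp encodes a coactivator that acetylates histones. Strain, age, sex, Cre driver, delivery and alleles are not in the labels. Nor is it stated that each tumour is from its own mouse, and the p-values below reflect only variation among these 12 samples, some of which may be technical.

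The Hippo pathway is a kinase cascade in which Stk3 and Stk4, with Sav1, activate Lats1 and Lats2, with Mob1a and Mob1b. The Lats kinases phosphorylate Yap1 and Wwtr1 (also called TAZ), which keeps these coactivators in the cytoplasm or marks them for degradation. Unphosphorylated Yap1 and Wwtr1 enter the nucleus and bind Tead factors, which contact DNA at the sequence GGAATG and switch on genes of growth, adhesion and matrix contact, Ctgf, Cyr61, Ankrd1 and Amotl2 among them. In human small cell carcinomas, YAP1 is typically low in cells with strong neuroendocrine features. Since the pathway acts through phosphorylation and localization, transcript levels do not measure its activity.

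Reads assigned to genes numbered 9.14 M to 20.5 M in the RPC libraries and 9.11 M to 57.3 M in the RP libraries. All values are CPM, counts per M assigned reads with library sizes scaled by TMM (trimmed mean of M-values). At these depths 3 counts made 0.0523 to 0.329 CPM before that scaling. Crebbp itself stood at 53.9 ± 4.19 CPM in RPC (SD, n = 5) and 54.6 ± 20.0 CPM in RP tumours (SD, n = 7), and counts per gene cannot show whether an exon was lost, so the labels were not checked by it. The neuroendocrine label was checked with 10 markers of such cells, whose summed level was 25600 to 138312 CPM in RPC and 95542 to 233758 CPM in RP tumours, with none of the 10 at 0 in all tumours and Calca, which encodes calcitonin, and Scg2, a granin gene, the highest among them. Of the 10, 1 was called higher and 1 lower in RPC tumours. In bulk tumours, fewer cells of a type and less RNA per cell cannot be told apart, and this holds for every difference below.

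The DNA letters that Tead factors bind were looked for in the 250 bases before each annotated gene start, in the RefSeq promoter table of GRCm38.p6, to show what the members share beyond their names. The table held 7 of the 10 members, Yap1, Wwtr1, Tead2, Tead3, Cyr61, Ankrd1 and Amotl2. Of these, 6 had GGAATG or its reverse complement CATTCC in at least 1 window, all but Tead2, which was 8 of their 10 windows. Of all windows in the table, 12.6% had it, and of all genes, 14.4%. Some windows of a gene overlap, the 4 targets are on the list because they are known Tead targets, and no test was made of these shares. The windows of Wwtr1, Tead3, Cyr61 and Ankrd1 that end at the outermost start in the table are printed 5′ to 3′ on the gene's strand, with each match in capitals.
Wwtr1, minus strand, GRCm38.p6 chr3:57575911-57576160: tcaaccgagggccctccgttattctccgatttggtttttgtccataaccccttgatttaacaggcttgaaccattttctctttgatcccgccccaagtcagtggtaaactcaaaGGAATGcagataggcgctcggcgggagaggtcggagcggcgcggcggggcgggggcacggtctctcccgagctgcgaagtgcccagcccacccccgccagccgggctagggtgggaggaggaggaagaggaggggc
Tead3, minus strand, GRCm38.p6 chr17:28350806-28351055: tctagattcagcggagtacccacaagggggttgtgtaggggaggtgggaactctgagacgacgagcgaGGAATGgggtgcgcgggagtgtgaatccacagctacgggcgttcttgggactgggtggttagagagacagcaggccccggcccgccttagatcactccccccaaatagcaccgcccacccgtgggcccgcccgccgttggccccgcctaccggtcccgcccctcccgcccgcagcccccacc
Cyr61, minus strand, GRCm38.p6 chr3:145649986-145650235: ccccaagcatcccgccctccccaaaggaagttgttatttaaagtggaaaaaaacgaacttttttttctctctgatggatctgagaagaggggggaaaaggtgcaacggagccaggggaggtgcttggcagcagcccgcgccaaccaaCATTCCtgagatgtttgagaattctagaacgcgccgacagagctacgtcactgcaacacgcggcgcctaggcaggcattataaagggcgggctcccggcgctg
Ankrd1, minus strand, GRCm38.p6 chr19:36119845-36120094: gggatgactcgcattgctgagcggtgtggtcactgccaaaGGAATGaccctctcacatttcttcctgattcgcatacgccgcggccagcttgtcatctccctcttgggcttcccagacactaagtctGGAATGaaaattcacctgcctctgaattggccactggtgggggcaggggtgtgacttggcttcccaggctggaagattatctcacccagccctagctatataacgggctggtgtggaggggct

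For Yap1 and Amotl2 only the 30 bases around the match are shown. The capitals again mark the match, which begins 141 bases before the start in Yap1 and 65 bases before it in Amotl2.
Yap1, minus strand, GRCm38.p6 chr9:8004720-8004749: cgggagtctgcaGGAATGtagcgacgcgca
Amotl2, plus strand, GRCm38.p6 chr9:102717727-102717756: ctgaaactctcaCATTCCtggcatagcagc

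Of the 10 members, 6 were lower in RPC tumours and none was higher, by edgeR's quasi-likelihood test with a Benjamini-Hochberg adjusted p under 0.05 over all 14989 genes tested. The 6 were the coactivator gene Yap1, the factors Tead2 and Tead3, and the targets Ctgf, Cyr61 and Amotl2, with log2 fold changes (RPC over RP) between -1.23 and -0.90. Over all tested genes 8.61% were called lower and 9.64% higher in RPC tumours, 18.3% in all. The median log2 fold change was -1.01 over the 10 members and -0.02 over all tested genes. The members were chosen with earlier results of these data known, so these shares and medians are a description and were not tested against each other. Wwtr1, Tead1, Tead4 and Ankrd1 were not called. The call count rested on the tumours included: 2 members were called without RPC replicate 1 and 2 without RPC replicate 2, 3 without RP replicate 4, 4 without RP replicate 2 or RP replicate 6, and 8 without RP replicate 1. It was 3 without RPC replicate 5 and RP replicate 6 together, the tumours richest in striated muscle transcripts. Calls over all tested genes changed in the same fits, from 2736 with all tumours. They numbered 1322 without RPC replicate 1, 1074 without RPC replicate 2 and 1547 without RP replicate 4. Without RP replicate 2 they numbered 1653, without RP replicate 6 1692 and without RP replicate 1 3328. Without RPC replicate 5 and RP replicate 6 together, 756 genes were called.

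**Figure D1:**
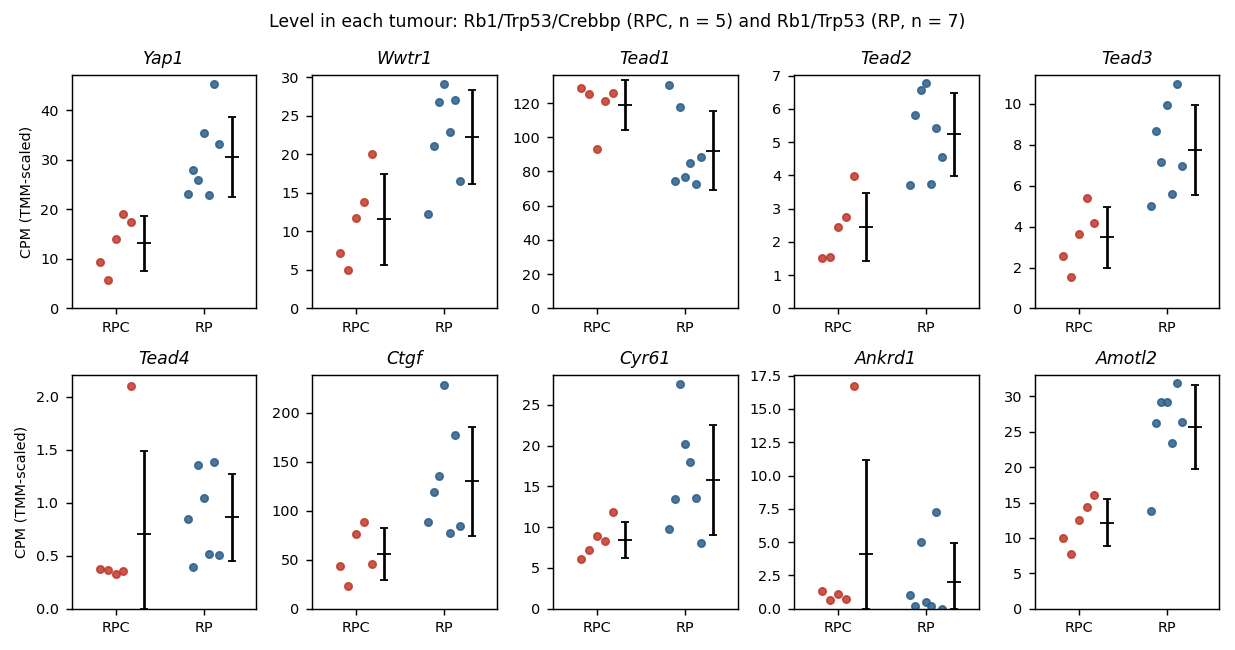
Level of each gene in every tumour, in TMM-scaled CPM on linear axes from 0. Points are tumours (RPC, n = 5; RP, n = 7) and bars are the mean ± SD, ended at 0 where the SD exceeds the mean. Yap1 was below every RP tumour in all 5 RPC tumours, while Tead1 was the one abundant member with a higher mean in RPC tumours.

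Yap1, the coactivator that gives the pathway its output, was found at 9.45, 5.77, 14.1, 19.0 and 17.4 CPM in RPC replicates 1 to 5, against 22.8 to 45.2 CPM in RP tumours with a median of 28.0 CPM. All 5 RPC tumours lay below the lowest RP tumour. Yap1 was the only member whose groups did not overlap, as was so for 6.26% of all tested genes, 2.64% with RPC lower and 3.62% with RPC higher. The log2 fold change was -1.22 ± 0.28 (SE, edgeR adjusted p = 0.0154). It lay between -1.38 and -1.05 with the call kept when any single tumour was left out. On replicates 1 to 5 alone Yap1 was not called, with the replicate number as a block (-1.13, edgeR adjusted p = 0.0626) or without it (-1.05, edgeR adjusted p = 0.0535). Those fits called 463 and 868 of 14838 genes.

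Wwtr1, the paralogue of Yap1, stood at 7.18, 4.95, 11.7, 13.9 and 20.1 CPM in RPC tumours, against 12.2 to 29.2 CPM in RP tumours with a median of 23.0 CPM. All 5 RPC tumours were below the RP median and 3 were below the lowest RP tumour, RP replicate 1. The log2 fold change was -0.94 ± 0.32 (SE), with an edgeR adjusted p of 0.0559 that missed the threshold. Wwtr1 was called without RPC replicate 5 (log2 fold change -1.25; adjusted p = 0.0298 by edgeR) and without RP replicate 1 (-1.05; adjusted p = 0.0326), and also by DESeq2 (-0.95; adjusted p = 0.0175) and limma voom (-1.13; adjusted p = 0.00523). Those 2 methods called more genes of every kind, 4082 of 17089 by DESeq2 and 6352 of 14989 by limma voom, against 2736 of 14989 by edgeR.

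Tead1 was the most abundant Tead gene in both groups. Per kilobase of exon, with exon lengths from GENCODE M21, it averaged 8.75 CPM in RPC and 6.79 CPM in RP tumours, against 0.512 and 1.09 CPM for Tead2, 0.518 and 1.16 CPM for Tead3 and 0.196 and 0.240 CPM for Tead4 in the same order of groups. Tead1 therefore made up 81.9% to 93.3% of the summed level per kilobase of the 4 genes in RPC tumours and 62.9% to 84.6% in RP tumours. On this scale Ctgf was the most abundant of the 10 members, at 19.4 ± 9.22 CPM in RPC (SD, n = 5) and 45.4 ± 19.4 CPM in RP tumours (SD, n = 7). Wwtr1 averaged 2.42 ± 1.24 CPM in RPC and 4.66 ± 1.28 CPM in RP tumours. Yap1 had a lower mean in both groups, at 1.42 ± 0.594 and 3.30 ± 0.871 CPM. Both genes were measured in the same tumours, so these SDs among tumours do not bear on the difference, which was not tested.

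Without the correction for length, Tead1 had 129, 125, 92.9, 121 and 126 CPM in RPC tumours, against 72.5 to 131 CPM in RP tumours with a median of 84.8 CPM. All 5 RPC tumours lay above the RP median, RP replicate 3 lay inside the RPC range and RP replicate 1 above it. Tead1 was not called (log2 fold change 0.37 ± 0.16 SE; edgeR adjusted p = 0.121). Without RP replicate 1 it was 0.47 and was called (adjusted p = 0.0321), as it was by limma voom. Over all genes, 3328 of 14927 were called without RP replicate 1 and 6352 of 14989 by limma voom, against 2736 of 14989 by edgeR with all tumours.

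Tead2, a family member prominent in embryonic and neural tissue, was measured at 1.51, 1.56, 2.45, 2.75 and 3.98 CPM in RPC tumours, against 3.73 to 6.77 CPM in RP tumours with a median of 5.44 CPM. RPC replicate 5 alone reached the RP range, and the log2 fold change was -1.09 ± 0.28 (SE; edgeR adjusted p = 0.0231). Tead3, a family member known from placenta and epithelia, had 2.58, 1.56, 3.63, 5.42 and 4.20 CPM in RPC tumours, against 4.99 to 10.96 CPM in RP tumours with a median of 7.18 CPM. RPC replicate 4 alone reached the RP range, and the log2 fold change was -1.15 ± 0.30 (SE; edgeR adjusted p = 0.0243). The Tead2 call was lost without RPC replicate 1 or 2, and the Tead3 call without RPC replicate 1, RPC replicate 2 or RP replicate 4.

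Tead4, which is required for the trophectoderm of the early embryo, was close to the limit of detection, with 4 to 29 counts per RPC tumour and 5 to 31 per RP tumour. It stood at 0.378, 0.367, 0.330, 0.355 and 2.10 CPM in RPC tumours, against 0.393 to 1.38 CPM in RP tumours with a median of 0.844 CPM. In RPC replicates 1 to 4 it was below every RP tumour, while RPC replicate 5 was above all of them. Tead4 was not called (log2 fold change -0.26 ± 0.55 SE; edgeR adjusted p = 0.761).

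Ctgf, a secreted matricellular protein gene and the most used readout of Yap1 and Tead activity, had 43.7, 23.4, 76.2, 88.4 and 45.5 CPM in RPC tumours, against 77.1 to 228 CPM in RP tumours with a median of 119 CPM. RPC replicate 4 lay inside the RP range and the other 4 below it. Ctgf fell by 1.23 ± 0.35 on the log2 scale (SE; edgeR adjusted p = 0.0322). The call was lost when any 1 of 6 tumours was left out, RPC replicates 1, 2 and 5 and RP replicates 2, 4 and 6, with log2 fold changes between -1.46 and -1.03 over all 12 omissions.

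Cyr61, which encodes a matricellular protein of the same family, stood at 6.11, 7.15, 8.92, 8.26 and 11.9 CPM in RPC tumours, against 8.05 to 27.6 CPM in RP tumours with a median of 13.6 CPM. All 5 RPC tumours were below the RP median and 2 were below the RP minimum. Cyr61 fell by 0.90 ± 0.29 on the log2 scale (SE), just past the threshold (edgeR adjusted p = 0.0490), and the call was lost in 9 of 12 omissions of 1 tumour. Over all 12 omissions the log2 fold change was between -1.06 and -0.71.

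Amotl2, a junctional scaffold protein gene that is both a target and an inhibitor of Yap1, had 9.96, 7.79, 12.6, 14.4 and 16.0 CPM in RPC tumours, against 13.8 to 31.8 CPM in RP tumours with a median of 26.4 CPM. RP replicate 1 was the only RP tumour within the RPC range. Amotl2 fell by 1.08 ± 0.22 on the log2 scale (SE), with the smallest adjusted p of the 10 members (edgeR, 0.00976), and the call was kept in all 12 omissions of 1 tumour.

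Ankrd1, an ankyrin repeat protein gene of heart and stretched skeletal muscle as well as a Yap1 target, had 1.32, 0.641, 1.09, 0.71 and 16.7 CPM in RPC tumours, against 0 to 7.23 CPM in RP tumours with a median of 0.521 CPM and no count in RP replicate 7. The RPC mean rested on replicate 5. The log2 fold change was 1.06 ± 1.15 (SE; edgeR adjusted p = 0.534) with all tumours and -1.06 without RPC replicate 5.

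**Figure D2:**
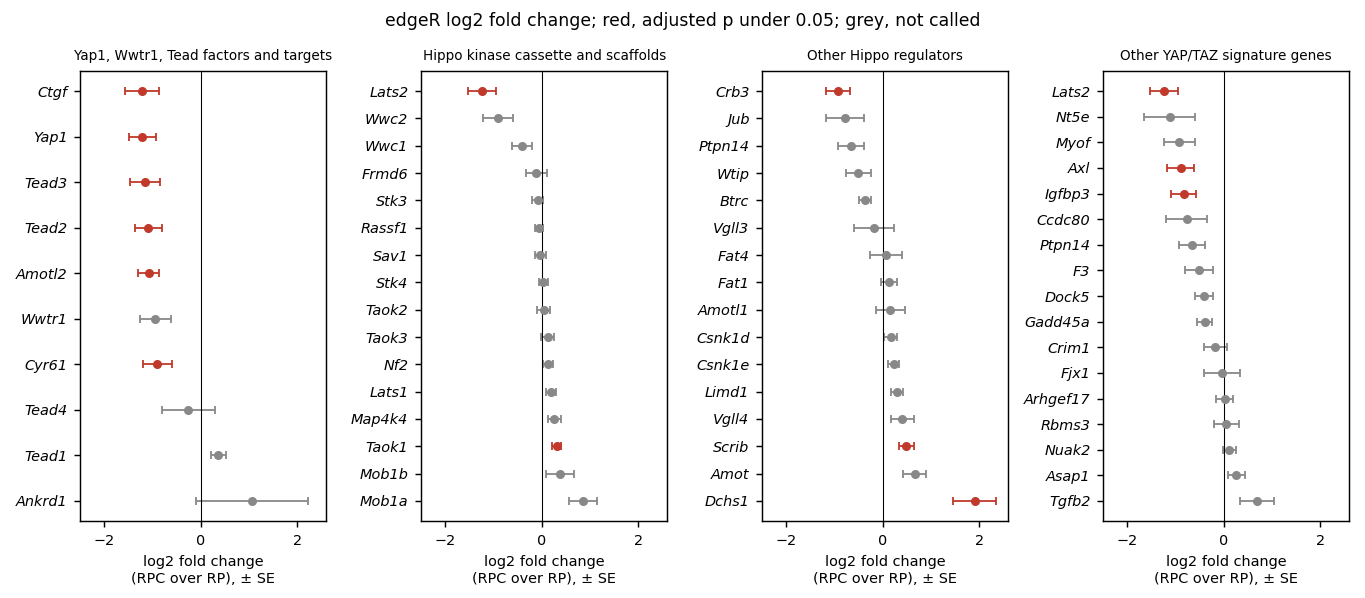
Log2 fold change (RPC over RP) from edgeR for the 10 genes and the other Hippo and YAP/TAZ lists. Points are estimates, bars ± 1 SE, red marks an adjusted p under 0.05 and grey a gene that was not called. Of the 10 genes 6 were called, all to the left of 0, against 2 of 16, 3 of 16 and 3 of 17 in the other lists and 18.3% of all tested genes. The call of Lats2 is counted in both the first and the last of these other lists.

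Most genes of the upstream kinase cassette and its scaffolds were not called. Of 16 genes listed, all tested, 1 rose and 1 fell, which is 12.5% against the 18.3% of all tested genes, and the median log2 fold change was 0.03. Lats2, a kinase that phosphorylates Yap1 and is itself a target of Yap1, fell to 5.23 ± 2.12 CPM in RPC tumours (SD, n = 5), against 12.4 ± 3.78 CPM in RP tumours (SD, n = 7; log2 fold change -1.24 ± 0.29 SE; edgeR adjusted p = 0.0178). Taok1, a kinase that activates Stk3 and Stk4, rose to 135 ± 11.7 CPM in RPC tumours, against 108 ± 12.2 CPM in RP tumours (log2 fold change 0.31 ± 0.10 SE; edgeR adjusted p = 0.0404), a call that was lost in 8 of 12 omissions of 1 tumour. The core kinases Stk3 (log2 fold change -0.09 ± 0.11 SE), Stk4 (0.03 ± 0.10 SE) and Lats1 (0.19 ± 0.10 SE) were not called.

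Among 18 further regulators of Yap1 and Wwtr1 or partners of Tead factors, 16 were tested, of which 2 rose and 1 fell, or 18.8%, with a median log2 fold change of 0.14. Vgll1 had no count in any tumour, and Vgll2 did not pass the filter. Dchs1, the cadherin that is the ligand of Fat4, rose to 24.1 ± 11.6 CPM in RPC tumours (SD, n = 5), against 6.39 ± 3.98 CPM in RP tumours (SD, n = 7; log2 fold change 1.90 ± 0.45 SE; edgeR adjusted p = 0.0177), a call lost without RPC replicate 2. The polarity gene Scrib rose by 0.49 ± 0.15 on the log2 scale (SE; edgeR adjusted p = 0.0405), a call lost in 9 of 12 omissions. The apical polarity gene Crb3 fell to 16.0 ± 5.93 CPM in RPC tumours, against 30.6 ± 7.38 CPM in RP tumours (log2 fold change -0.93 ± 0.24 SE; edgeR adjusted p = 0.0227), a call lost without RPC replicate 1 or 2.

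Of 18 other genes of a YAP/TAZ target signature known from human cancers, 17 were tested, 3 fell and none rose, or 17.6% called, which is close to the 18.3% of all tested genes. The median log2 fold change was -0.41, with 12 values below 0 and 5 above. Besides Lats2, which is also in the kinase list, Axl, a receptor tyrosine kinase gene, stood at 28.1 ± 10.7 CPM in RPC (SD, n = 5) and 52.3 ± 18.9 CPM in RP tumours (SD, n = 7; log2 fold change -0.90 ± 0.28 SE; edgeR adjusted p = 0.0450). Igfbp3, a binding protein gene for insulin-like growth factors, had 49.0 ± 8.38 and 87.4 ± 34.4 CPM in RPC and RP tumours (log2 fold change -0.83 ± 0.26 SE; edgeR adjusted p = 0.0419). The Axl call was lost in 9 and the Igfbp3 call in 8 of 12 omissions of 1 tumour, while Lats2 kept its call in all 12. Foxf2 did not pass the filter.

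Among tumours of the same label, the coactivators and some of the targets varied together. Levels in log2 CPM were centred on the group mean, and the 8 relations of Yap1 and Wwtr1 with the 4 targets were tested by permuting tumours within their group, with p-values adjusted over the 8. Wwtr1 and Amotl2 had the closest relation (r = 0.90, adjusted permutation p = 0.00232; Spearman's rho = 0.94, adjusted permutation p = 0.00208; n = 12). Without RPC replicate 2 and RP replicate 1, the tumours farthest from the median of Wwtr1, r was 0.86, and within the 7 RP tumours alone it was 0.87.

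Yap1 and Amotl2 had r = 0.81 (adjusted permutation p = 0.00332; rho = 0.90, adjusted permutation p = 0.00288), 0.74 without RPC replicates 2 and 4, and 0.67 within RP tumours. Yap1 and Ctgf had r = 0.78 (adjusted permutation p = 0.0168; rho = 0.78, adjusted permutation p = 0.0135), 0.57 without RPC replicates 2 and 4, and 0.68 within RP tumours. Without RPC replicate 2 alone the r of Yap1 and Ctgf was 0.63 and no longer past the threshold (adjusted permutation p = 0.110).

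Cyr61 went with Wwtr1 (r = 0.70, adjusted permutation p = 0.00968; rho = 0.78, adjusted permutation p = 0.0113; 0.73 without the 2 farthest tumours and 0.77 within RP tumours), while its relation with Yap1 did not pass (r = 0.19, adjusted permutation p = 0.509; rho = 0.31, adjusted permutation p = 0.329). The difference between these correlations was not tested. Wwtr1 and Ctgf passed by rank and missed the threshold by Pearson's r (r = 0.67, adjusted permutation p = 0.0508; rho = 0.73, adjusted permutation p = 0.0228; 0.44 without the 2 farthest tumours and 0.72 within RP tumours). Ankrd1 was not past the threshold with Yap1 (r = 0.33, adjusted permutation p = 0.340; rho = 0.33, adjusted permutation p = 0.329) or with Wwtr1 (r = 0.50, adjusted permutation p = 0.131; rho = 0.43, adjusted permutation p = 0.209). Leaving out 1 tumour also brought relations past the threshold. Wwtr1 and Ctgf passed without RPC replicate 5 (r = 0.86, adjusted permutation p = 0.00880) or RP replicate 5 (r = 0.74, adjusted permutation p = 0.0305), and Wwtr1 and Ankrd1 without RP replicate 1 (r = 0.60, adjusted permutation p = 0.0446). No correlation was computed within the 5 RPC tumours alone.

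The same genes also varied with marker scores of other cell types, each score being the mean z-scored log2 CPM of a marker list, centred on the group mean like the genes. As a description over the 12 tumours, Wwtr1 had r = 0.77 with the fibroblast and 0.74 with the endothelial score, and Cyr61 had r = 0.86 with both the fibroblast and the macrophage score. Amotl2 had r = 0.63 with the adipocyte, 0.58 with the endothelial and 0.57 with the fibroblast score. Yap1 had r = 0.69 with the follicular and 0.67 with the striated muscle score, and Ctgf had r = 0.66 with the follicular score. Ankrd1 had r = 0.75 with the endothelial score. With the neuroendocrine score, r was -0.09 for Yap1, -0.32 for Wwtr1, -0.34 for Amotl2, -0.23 for Cyr61, -0.39 for Ankrd1 and 0.32 for Ctgf. The part of these cell types in the relations between coactivators and targets was not tested.

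**Figure D3:**
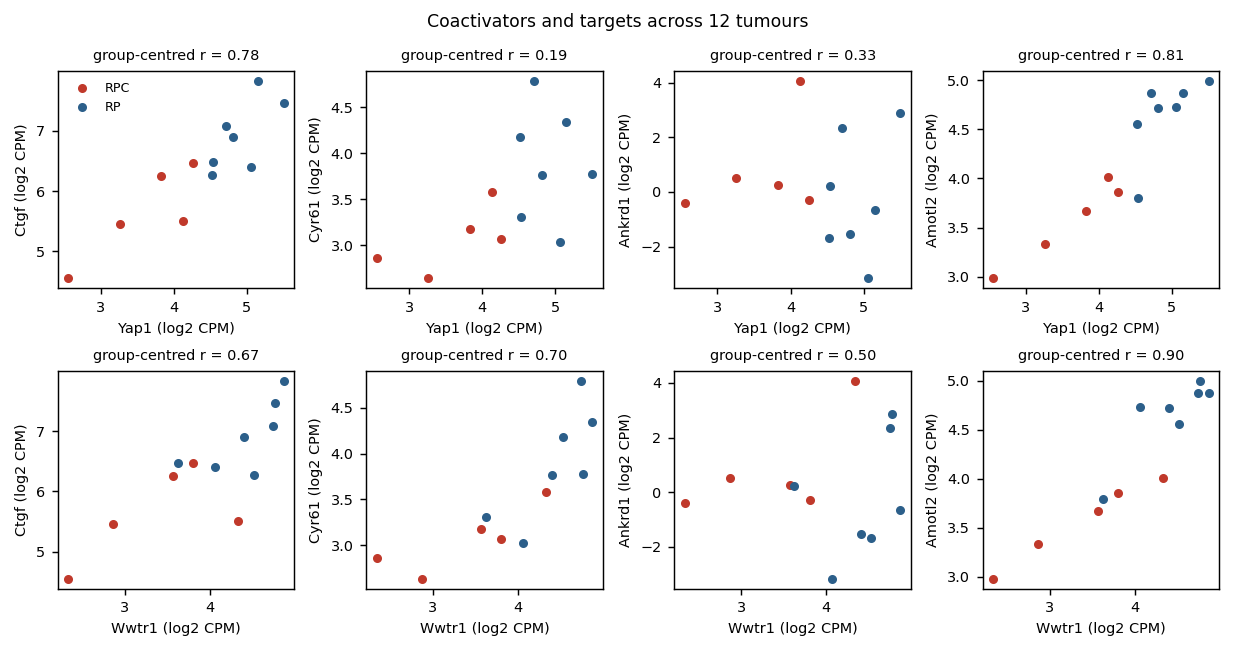
Log2 CPM of the coactivators (horizontal axes) and of the targets (vertical axes), 1 point per tumour, RPC in red and RP in blue, with the group-centred r above each panel. Amotl2 had the highest r of the 4 targets with either coactivator (0.81 with Yap1 and 0.90 with Wwtr1), and Ankrd1 passed the threshold with neither.

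The genes whose levels were most like Yap1 over the 12 tumours, by Pearson's r of log2 CPM among 13245 genes, were the Wnt receptor gene Fzd7 (r = 0.98), Tead3 (0.98), the epithelial transcription factor gene Grhl2 (0.98), the myosin gene Myo3b (0.97) and the monocarboxylate transporter gene Slc5a8 (0.97). Within the 7 RP tumours the same 5 had r between 0.87 and 0.96. Fzd7 stood at 7.48 ± 5.02 CPM in RPC and 21.8 ± 7.01 CPM in RP tumours, and Grhl2 at 4.31 ± 2.18 and 9.68 ± 2.81 CPM (SD, n = 5 and n = 7). For Ctgf the most alike were the tetraspanin gene Cd151 (r = 0.97), Syde1 (0.96), the acetylcholine receptor subunit gene Chrnb1 (0.96), the extracellular sulfatase gene Sulf2 (0.96) and the methionine sulfoxide reductase gene Sepx1 (0.95). These values pool both groups and are given as a description.

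Some markers of other cell types were called between the labels as well, to be read beside the 18.3% called over all tested genes. The adipocyte list and the pericyte and smooth muscle list stood furthest above that share. The summed level of 11 thyroid follicular markers (Tg the most abundant) ranged from 55.7 to 5755 CPM in RPC and from 1641 to 9298 CPM in RP tumours, with 2 of 10 tested markers called, both lower. Of 10 adipocyte markers, led by Fabp4 and Lpl, 9 fell, and their sum was 55.9 to 138 CPM in RPC and 81.3 to 1787 CPM in RP tumours. Of 8 endothelial markers, led by Pecam1 and Emcn, 2 fell (sums of 44.1 to 145 CPM in RPC and 77.4 to 163 CPM in RP tumours), of 8 fibroblast markers, led by Col3a1 and Col1a1, 1 fell (452 to 1714 and 577 to 3282 CPM), and of 8 pericyte and smooth muscle markers, led by Des and Acta2, 4 fell (83.9 to 499 and 115 to 303 CPM). Des itself had a higher mean in RPC tumours, 86.7 CPM against 42.7 CPM in RP tumours. The pericyte and smooth muscle sum of 499 CPM was that of RPC replicate 5, which also had the highest striated muscle sum. The median pericyte and smooth muscle sum was 91.0 CPM in RPC and 205 CPM in RP tumours. No marker of 8 for macrophages (led by Lyz2 and C1qa) or 8 for striated muscle (led by Acta1 and Myh1) was called, with sums of 216 to 580 and 282 to 1294 CPM for macrophages and of 13.8 to 3740 and 8.64 to 3568 CPM for striated muscle. None of the markers was at 0 in all tumours.

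Some high and low values of the members fell in tumours with high or low sums. Yap1 was lowest in RPC replicate 2, which had the lowest follicular sum. In RPC replicate 5, however, Yap1 was the second highest of its group at 17.4 CPM with a follicular sum of 383 CPM, and in RP replicate 1 it was the second lowest of its group at 23.1 CPM with the highest sum, 9298 CPM. Tead1 was at most 88.5 CPM in RP replicates 2, 4, 6 and 7, the tumours with the highest adipocyte sums, but also 84.8 CPM in RP replicate 5 with a sum of 168 CPM, and it was highest in RP replicate 1, with the lowest adipocyte sum of its group. Cyr61 was highest in RP replicate 3, which had the highest fibroblast and macrophage sums. The part of these cell types in the members' values was not tested beyond the fits that follow. Ankrd1 was highest in RPC replicate 5 and RP replicate 6, the tumours whose striated muscle sums of 3740 and 3568 CPM stood far above the at most 414 CPM of all others, although RP replicate 3 had 4.996 CPM of Ankrd1 with a muscle sum of 8.64 CPM.

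**Figure D4:**
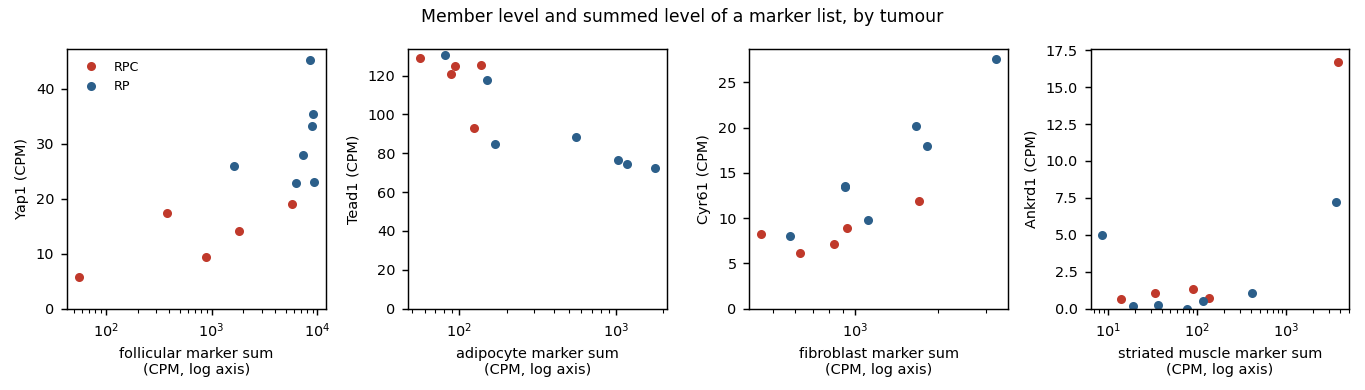
Level of 4 genes (CPM, linear axis) against the summed CPM of a marker list (log axis), 1 point per tumour, RPC in red and RP in blue. The tumours highest in Ankrd1 were those with muscle sums of 3568 and 3740 CPM, and Tead1 was lowest, at 72.5 to 76.6 CPM, in the 3 tumours with the highest adipocyte sums.

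With a marker score as a covariate, few or no members were called. With the follicular score none of the 10 was called, and Yap1 stood at -0.47 ± 0.35 on the log2 scale (SE; adjusted p = 0.701 by edgeR), but that fit called 4 genes of all 14989 tested. With the adipocyte score none was called, the value for Yap1 was -0.69 ± 0.30 and that for Tead1 -0.03 ± 0.14, and 66 genes were called in all. With the endothelial score none was called, Cyr61 stood at -0.38 ± 0.30, and 516 genes were called in all. With the fibroblast score Amotl2 alone was called (-0.86 ± 0.23; adjusted p = 0.0409), Yap1 stood at -1.11 ± 0.31 (adjusted p = 0.0502) and Cyr61 at -0.33 ± 0.22, and 1192 genes were called in all. Yap1, Wwtr1, Tead2, Tead3, Ctgf, Cyr61 and Amotl2 had a negative log2 fold change in each of these 4 fits. Because the scores themselves differ between the groups, the share of each fall that goes with genotype and the share that goes with cell makeup cannot be told apart.

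**Figure D5:**
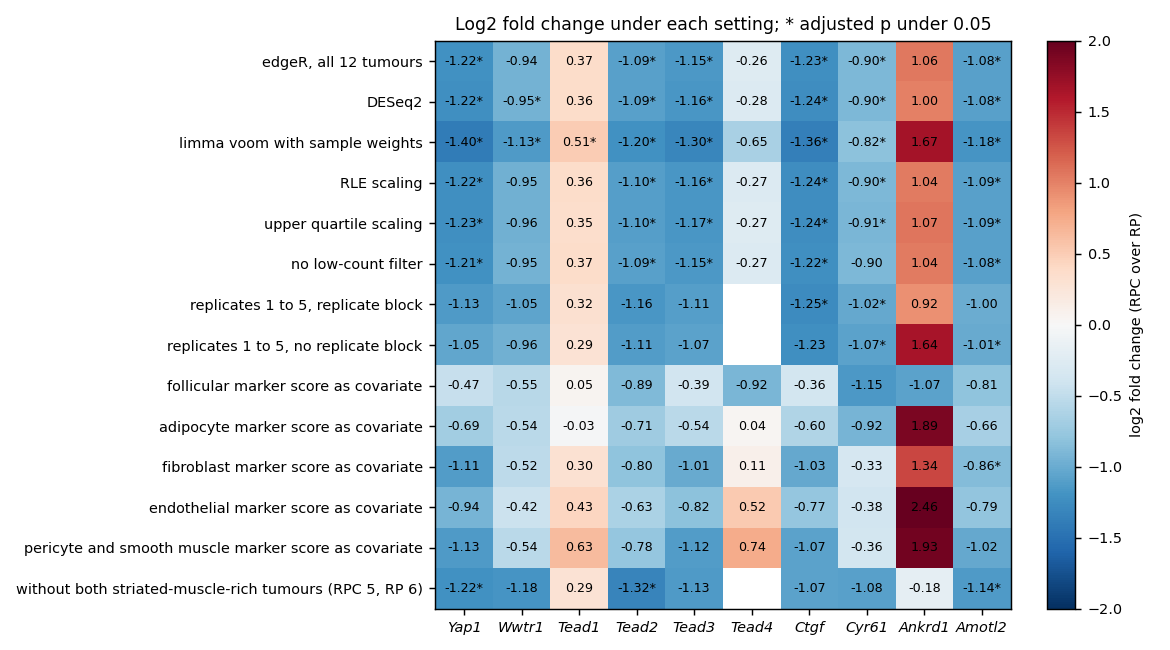
Log2 fold change (RPC over RP, colour and number) of the 10 genes, in columns, under 14 tests, scalings, filters, covariates or choices of tumours, down the page. Colours end at 2 on either side of 0, an asterisk marks an adjusted p under 0.05 and blank cells a gene that was not tested. The values of Yap1 ran from -1.40 with limma voom to -0.47 with the follicular score, and those of Ankrd1 changed sign.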

How the data were processed

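Polyadenylated RNA from 12 tumours was sequenced from NEBNext Ultra libraries, per the labels' protocols. The submitters' processing notes name bcl2fastq 1.8.2, TopHat2 2.0.12, HTSeq 0.6.1 and build mm9. Annotation and strand setting were not given in the sources used here; without strand, a gene's reads cannot be separated from those of a gene overlapping it on the other strand. The deposited values are raw counts per gene and tumour. The 5 summary rows of each table were left out; reads outside genes made up 13.1% to 17.6% and reads aligned to several places 10.9% to 18.5% of each table.

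Genes kept by filterByExpr (minimum count 10) were tested across all 12 tumours with R 4.3.3 and edgeR 4.0.16 (TMM, robust quasi-likelihood F test, no covariate). The SE is the size of the log2 fold change divided by the square root of F, and a prior count of 2 went into log2 CPM. Libraries of a group all differed by more than sampling noise. Correlations used 100000 permutations within groups, and 20000 where 1 tumour was left out. Alternatives used DESeq2 1.42.0 and limma 3.58.1, whose voom fit, called limma voom above and below, gave each tumour a sample weight. The test was tried on simulated counts first. Promoters are RefSeq's on GRCm38.p6 and exon lengths GENCODE M21's; no coordinate was joined to the mm9 counts. Depth limits cover counting error only. The members and lists were chosen with earlier results of these data known. Named genes are the 10 members, called genes of each list (up to 8) and at least 2 per list, the 5 most like Yap1 and Ctgf, and the 2 highest of each marker list, 1 of which is not reported here. The core kinases Stk3, Stk4 and Lats1 were named for their role, outside that rule.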

Additional observations from a re-analysis of the deposited data

Results flagged for a closer look

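A single tumour stood far from the rest of its group, on the log2 scale, in 4 of 20 groups examined (10 genes in each genotype). By chance about 1 in 20 groups would. The 20 groups come from the same 12 tumours and many members varied together, so they are not independent. The count was not tested against that share. Ankrd1 in RPC replicate 5 stood at 16.7 CPM, with the next highest RPC tumour at 1.32 CPM. Tead4 in the same tumour stood at 2.10 CPM, with the next at 0.378 CPM. That tumour also had the highest striated muscle, pericyte and smooth muscle, endothelial, fibroblast, macrophage and adipocyte marker sums of the RPC group, and their part in these values was not tested. Tead1 in RPC replicate 3 was low, at 92.9 CPM against 121 CPM in the nearest RPC tumour. Amotl2 in RP replicate 1 was low, at 13.8 CPM against 23.5 CPM in the nearest RP tumour, and Wwtr1 was lowest of its group in that tumour too.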

How the results depend on the processing

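The number of the 10 members called (6) was 5 to 8 with DESeq2, limma voom, other scalings and other filters. It was 2 on replicates 1 to 5, with the number as a replicate block or without it, 0 with the follicular, adipocyte, endothelial or (chosen after seeing the data) pericyte and smooth muscle score, 1 with the fibroblast score, and 3 without RPC replicate 5 and RP replicate 6 together, also chosen after seeing the data. Leaving out 1 tumour gave 2 to 8. Hippo kinase and scaffold genes called (2) numbered 4 with DESeq2, 8 with limma voom, 1 with upper quartile scaling or no filter, 1 with the block and 0 without it on replicates 1 to 5, 0 with each of the 5 scores and without both muscle-rich tumours, and 1 to 3 on leaving out 1 tumour. Other regulators called (3) numbered 6 with DESeq2, 11 with limma voom, 0 with the block and 1 without it, 0 with the follicular, adipocyte or endothelial score and without both muscle-rich tumours, 1 with the pericyte score, and 0 to 5 on leaving out 1 tumour. Other signature genes called (3) numbered 6 with limma voom, 3 with the block and 0 without it, 0 with each of the 5 scores and without both muscle-rich tumours, and 1 to 4 on leaving out 1 tumour. Over all tested genes, 2736 were called, against 4082 with DESeq2, 6352 with limma voom and 1074 to 3510 on leaving out 1 tumour. On replicates 1 to 5, 463 were called with the block and 868 without it. With the pericyte score 645 were called, and without both muscle-rich tumours 756. The cause of these changes was not tested, beyond there being fewer tumours in some fits.

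Signs changed for Tead1 with the adipocyte score (-0.029), for Tead4 with the fibroblast (0.11), adipocyte (0.039), endothelial (0.52) and pericyte (0.74) scores, and for Ankrd1 with the follicular score (-1.07), without RPC replicate 5 (-1.06) and without both muscle-rich tumours (-0.18), with -1.06 to 1.92 over the omissions of 1 tumour. Leaving out 1 tumour, r ranged from 0.63 to 0.86 for Yap1 and Ctgf, 0.49 to 0.86 for Wwtr1 and Ctgf, and 0.28 to 0.60 for Wwtr1 and Ankrd1; another prior count or scaling changed no call. Deviations of tumours of the same number correlated at -0.06 to 0.16, over 0.1 in 2 of 5 pairs. In these values 1 of 5 RPC tumours was closest to its own number. Pairing in single genes was not tested.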
